A study of Rattus norvegicus with 6 samples.

Results

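The neurotrophin Bdnf and 7 receptors of the neurotrophin and GDNF families (Ntrk2, Ntrk3, Ngfr, Ret, Gfra1, Gfra2 and Gfra3) were described across the 3 groups of a bulk RNA-seq study of rat dorsal root ganglia. The genes were taken by symbol from a table of 22864 genes, all 8 were present, and all 8 were among the 15531 genes with enough counts to be tested. Bdnf had 1.49 times the Sham+Veh level in CPIP+Veh and 0.757 times the CPIP+Veh level in CPIP+ETA. It did not pass the threshold over all genes in either comparison. In the main edgeR fit, of all 6 libraries with group as the only term, none of the 7 receptors reached even an unadjusted p under 0.05.

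CPIP+ETA was wild-type rats whose hind limb was tied near the ankle with an O-ring for 3 h (chronic post-ischaemia pain, CPIP) and that then received etanercept, a soluble TNF receptor that binds TNF. CPIP+Veh had the same ligation with vehicle, and Sham+Veh had the anaesthesia without the ring, with vehicle. Injections into the spinal canal were given daily from 2 days after the procedure, and the ganglia of segments L4 to L6 on the operated side were taken at 7 days. The labels name male rats and give no strain or age. A sham group with etanercept is not analysed here, so etanercept is compared only within the model. All groups share the anaesthesia and the spinal injections. Each group has 2 libraries, called 1 and 2 after the number in their titles, and nothing in the labels ties them to different animals; the spread that the p-values rest on may therefore be technical.

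Library totals were 18285251 to 19981250 counts. The pair of libraries of each group differed by more than sampling noise, with a chi-square per gene of 6.03 to 10. All 8 pan-neuronal markers were present, at a summed 9696 to 10710 CPM (counts scaled to library size with TMM factors), as were the 6 satellite glia markers at 4406 to 5024 CPM, whereas the 6 spinal cord markers summed to 22.9 to 37.2 CPM. In bulk tissue, fewer cells of a type and less RNA per cell cannot be told apart.

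Neurotrophins are secreted growth factors that sensory neurons depend on during development and that tune their excitability in the adult. Each binds a Trk receptor tyrosine kinase with high affinity, and all of them bind the p75 receptor encoded by Ngfr, which glia also make. The GDNF family works through a shared tyrosine kinase, Ret, paired with a GPI-anchored GFRα co-receptor that selects the ligand. In the ganglion, different receptors mark different sensory neuron classes, and Bdnf, made by a subset of these neurons, is transported to the spinal cord and is known for its part in pain after injury.

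The identifiers of all 8 genes carried the same symbols in RefSeq's gene table for GRCr8; the data were made on an earlier build, Rnor_6.0. That table lists 11 transcripts for Bdnf, 14 for Ntrk2 and 8 each for Ntrk3 and Gfra1. The deposited values are 1 per gene, so Bdnf transcripts from different promoters, and full-length and truncated forms of the Trk receptors, are summed. RefSeq promoter windows were available for 4 of the 8 genes (Bdnf, Gfra1, Ret and Gfra3), with 6 for Bdnf. Bdnf is transcribed from several first exons, some of them behind activity-dependent promoters. The 250 bases before each start were searched on both strands for the CRE half-site TGACG, the full CRE TGACGTCA, the AP-1 site TGANTCA, the E-box CACGTG and the TATA motif TATAAA. The 3 windows below are shown because Bdnf and Gfra1 had the highest fold changes of the 8 genes in the model and because these Bdnf windows hold the CRE half-site and AP-1 letters, given in capitals:
Bdnf, chr3:116637608-116637857, plus strand, GRCr8: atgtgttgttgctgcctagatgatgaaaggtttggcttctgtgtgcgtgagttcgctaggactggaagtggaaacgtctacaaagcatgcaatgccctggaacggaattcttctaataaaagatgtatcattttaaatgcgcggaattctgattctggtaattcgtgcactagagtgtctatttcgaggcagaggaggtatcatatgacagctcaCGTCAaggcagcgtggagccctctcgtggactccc
Bdnf, chr3:116621721-116621970, plus strand, GRCr8: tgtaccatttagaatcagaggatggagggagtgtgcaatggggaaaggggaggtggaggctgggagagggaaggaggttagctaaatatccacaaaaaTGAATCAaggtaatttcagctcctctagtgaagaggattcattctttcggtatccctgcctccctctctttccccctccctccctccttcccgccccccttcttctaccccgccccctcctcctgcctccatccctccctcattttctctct
Gfra1, chr1:267555812-267556061, minus strand, GRCr8: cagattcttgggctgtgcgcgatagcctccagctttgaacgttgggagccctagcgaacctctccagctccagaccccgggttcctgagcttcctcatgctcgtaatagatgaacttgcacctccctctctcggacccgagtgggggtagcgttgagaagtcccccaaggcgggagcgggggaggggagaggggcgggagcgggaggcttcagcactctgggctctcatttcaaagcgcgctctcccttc

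Of the 9 windows of the 4 genes, 1 held the CRE half-site and 1 the AP-1 letters, both of Bdnf, and 0 held the full CRE or the E-box. Of all 33469 RefSeq windows of the same length, some of them overlapping, 18.2% held the half-site, 1.59% the full CRE (which contains the half-site), 6.34% the AP-1 letters and 5.59% the E-box. The TATA letters were in 1 window, also of Bdnf, against 12.9% of all windows. These matches describe letters only, and the counts do not say which Bdnf promoter the reads came from.

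Bdnf, the secreted ligand of the set, was the member with an unadjusted p under 0.05 in CPIP+Veh against Sham+Veh and in CPIP+ETA against CPIP+Veh, without being called in either. It stood at 23.6 and 29.2 CPM in CPIP+ETA, 34.4 and 35.3 CPM in CPIP+Veh, and 22.5 and 24.2 CPM in Sham+Veh, from 469 and 536, 680 and 699, and 415 and 442 reads. Both CPIP+Veh libraries lay above the other 4, and the CPIP+ETA libraries overlapped the sham libraries, with CPIP+ETA 2 above both of them. In CPIP+Veh against Sham+Veh the mean was 34.8 ± 0.586 CPM against 23.3 ± 1.21 CPM (SD, n = 2 each), a log2 fold change of 0.58 (SE 0.11, 95% interval 0.31 to 0.85). The unadjusted p was 0.00151, the 45th lowest of 15531 genes, and the edgeR adjusted p was 0.52, so Bdnf was not called. In this comparison 0.0193% of the genes tested were called, 2.34% were higher at an unadjusted p under 0.05, and 5.3% had a larger absolute fold change than Bdnf.

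With etanercept, Bdnf was at 26.4 ± 3.93 CPM in CPIP+ETA against 34.8 ± 0.586 CPM in CPIP+Veh, a log2 fold change of -0.40 (SE 0.11, 95% interval -0.67 to -0.14). Its unadjusted p of 0.00931 was the 134th lowest of 15531, and the edgeR adjusted p was 0.938. In this comparison edgeR called 0% of the genes tested, with 2.73% lower at an unadjusted p under 0.05, and DESeq2 called 21 genes, Bdnf not among them. CPIP+ETA against Sham+Veh gave a log2 fold change of 0.18 (SE 0.11, adjusted p = 0.855). The CPIP+Veh libraries enter the first 2 of these comparisons on opposite sides, so the fold changes of opposite sign share their values.

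The size of the etanercept difference depended on which CPIP+ETA library was used. With 1 library set aside it was -0.25 (CPIP+ETA 1 set aside) and -0.56 (CPIP+ETA 2 set aside), and the corresponding values of CPIP+ETA against Sham+Veh were 0.33 and 0.02. CPIP+ETA 1 was also the library with the lowest sum of the 7 myelinating Schwann cell markers, 9265 CPM against 11250 to 14050 CPM in the other 5, and the highest sum of the 4 red blood cell markers, 307.9 CPM against 28.1 to 182.1 CPM. The part of those markers in the Bdnf value was not tested. The difference between CPIP+Veh and Sham+Veh was steadier in size, at 0.53 to 0.63 whichever library was left out. In the alternative settings that left out no library, the unadjusted p of Bdnf stayed under 0.05 in both comparisons, by the test of each setting. For CPIP+Veh against Sham+Veh, DESeq2 gave an adjusted p of 0.0638, the lowest among those settings. The highest was 0.609, by edgeR with library totals.

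**Figure D1:**
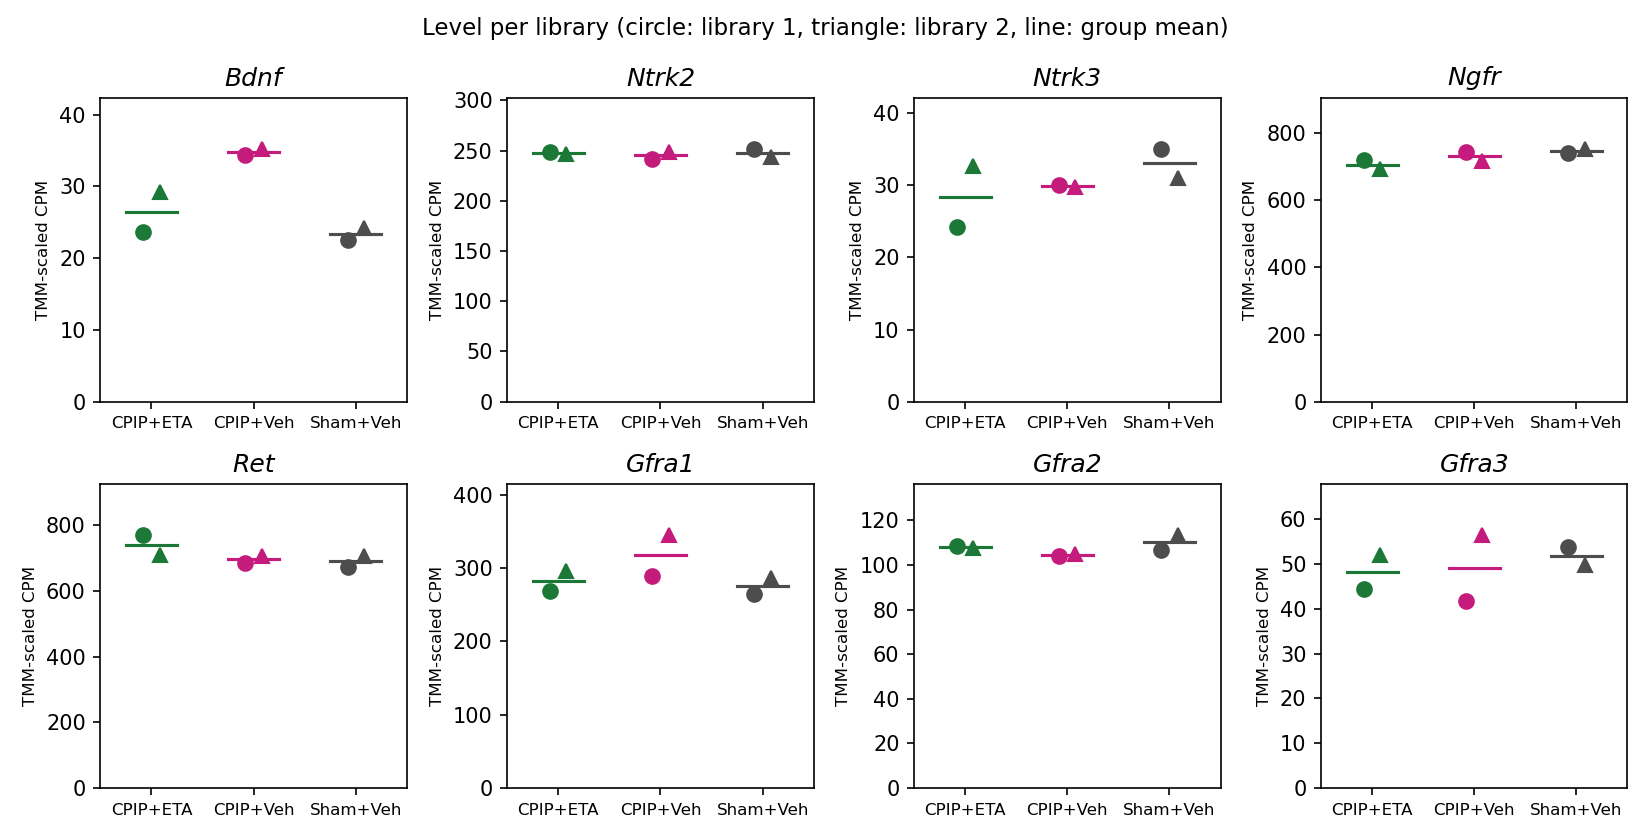
TMM-scaled CPM of each gene (y axis, from 0, 1 scale per panel) in the 2 libraries of CPIP+ETA, CPIP+Veh and Sham+Veh (x axis), with circles for library 1, triangles for library 2 and lines for the group means. Both CPIP+Veh points of Bdnf (34.4 and 35.3 CPM) lie above the other 4, while the Ntrk2 points of all 6 libraries lie between 241 and 252 CPM.

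Expressed per 100 reads of Ntrk2, a ratio that no scaling between libraries can move, Bdnf had 9.49 and 11.8 reads in CPIP+ETA, 14.3 and 14.2 reads in CPIP+Veh, and 8.92 and 9.94 reads in Sham+Veh. Per 1000 reads of the 8 pan-neuronal genes it had 2.21 and 2.88, 3.25 and 3.34, and 2.27 and 2.50 reads in the same order of groups. In both ratios the CPIP+Veh libraries stayed above the other 4. The pan-neuronal genes themselves summed to 10710 and 10130 CPM in CPIP+ETA, 10590 and 10560 CPM in CPIP+Veh, and 9883 and 9696 CPM in Sham+Veh. Tubb3, Uchl1 and Prph made up most of each sum, and each was higher in both CPIP+Veh libraries than in both sham libraries. Rbfox3 went the other way, at 74.5 and 70.9 CPM in CPIP+Veh and 84.6 and 81.4 CPM in Sham+Veh. Elavl4, Snap25, Isl1 and Pou4f1 overlapped between these groups.

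The summed level of axon injury markers was highest in CPIP+Veh, as that of Bdnf was. The 12 markers, all in the table, summed to 297.5 and 350.1 CPM in CPIP+ETA, 376 and 511.9 CPM in CPIP+Veh, and 312.4 and 281.8 CPM in Sham+Veh. Gap43, a growth cone protein, made up most of each sum, and Sprr1a was at 0 in both sham libraries. The CPIP+Veh pair was unequal for some of these markers: Atf3, a transcription factor switched on by axon damage, was at 16.2 CPM in CPIP+Veh 1 and 42.1 CPM in CPIP+Veh 2, and the neuropeptide Npy at 6.08 and 35.8 CPM. Others were closer, such as the gastrin receptor Cckbr at 1.57 and 1.67 CPM and Gap43 at 294.7 and 344 CPM, and Bdnf was nearly equal in the pair. The part of the injury markers in the Bdnf difference was not tested.

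Few genes had a pattern over the 6 libraries close to that of Bdnf. Likeness was measured as the root mean square difference of mean-centred log2 CPM, among 13290 other genes with a mean of at least 1 CPM. Only 9 of them came within 0.1 of Bdnf, against 194 for Gfra3, 225 for Ntrk3 and 7000 for Ntrk2. This count depends on how much a gene itself varied. The root mean square of its own centred values was 0.261 for Bdnf, 0.153 for Gfra3, 0.166 for Ntrk3 and 0.0213 for Ntrk2. The count therefore does not show that the Bdnf pattern was unusual. The nearest 3 to Bdnf were Krt7, a keratin of simple epithelia, at 0.0542, Trim66 at 0.0753 and Yy2 at 0.0769. Krt7 stood at 9.62 and 10.6 CPM in CPIP+ETA, 12.8 and 13.5 CPM in CPIP+Veh, and 8.88 and 9.25 CPM in Sham+Veh. Its log2 fold change was 0.54 in CPIP+Veh against Sham+Veh (edgeR adjusted p = 0.59) and -0.38 in CPIP+ETA against CPIP+Veh (adjusted p = 0.938).

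**Figure D2:**
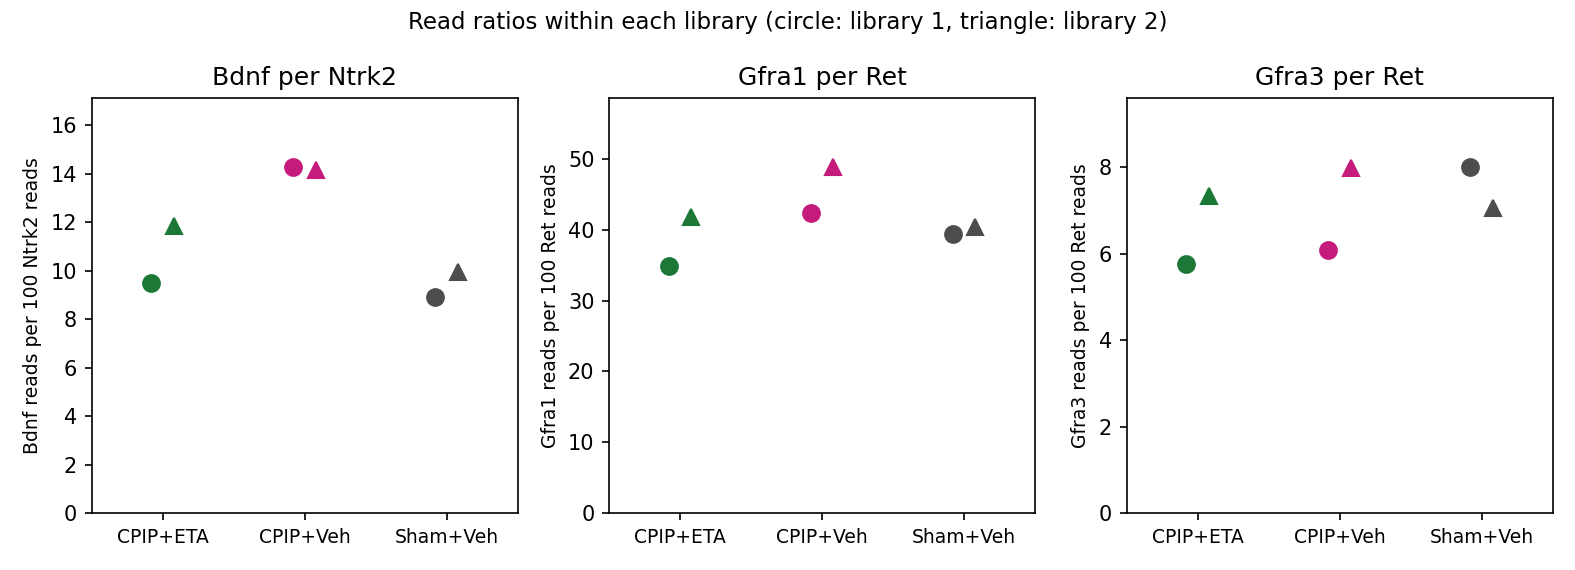
Reads of Bdnf per 100 reads of Ntrk2, and reads of Gfra1 and of Gfra3 per 100 reads of Ret (y axes, from 0), in the 2 libraries of each group (x axis; circles library 1, triangles library 2). Bdnf per Ntrk2 is 14.3 and 14.2 in CPIP+Veh and at most 11.8 in the other 4 libraries, and CPIP+Veh 2 has the highest Gfra1 per Ret, at 48.8.

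Ntrk2, which encodes TrkB, the high-affinity receptor of BDNF, was the steadiest member. Its levels were 249 and 247 CPM in CPIP+ETA, 241 and 249 CPM in CPIP+Veh, and 252 and 244 CPM in Sham+Veh. All 3 groups overlapped. The log2 fold change was -0.015 in CPIP+Veh against Sham+Veh (95% interval -0.13 to 0.10, edgeR adjusted p = 0.987), 0.015 in CPIP+ETA against CPIP+Veh (adjusted p = 0.982) and 0.00012 in CPIP+ETA against Sham+Veh (adjusted p = 1). A change of the size measured for Bdnf lies outside the first interval.

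Ntrk3 encodes TrkC, the receptor of neurotrophin-3, best known from the proprioceptive neurons that sense muscle stretch. It stood at 24.2 and 32.7 CPM in CPIP+ETA, 30.0 and 29.8 CPM in CPIP+Veh, and 35.1 and 31.0 CPM in Sham+Veh. CPIP+ETA 1 was the lowest library and CPIP+ETA 2 lay above both CPIP+Veh libraries, so these 2 groups overlapped. The log2 fold changes were -0.15 (SE 0.14) in CPIP+Veh against Sham+Veh, -0.07 (SE 0.14) in CPIP+ETA against CPIP+Veh and -0.22 (SE 0.14) in CPIP+ETA against Sham+Veh, with edgeR adjusted p-values of 0.957, 0.96 and 0.863. Leaving out Sham+Veh 1 made the first -0.047, and leaving out Sham+Veh 2 made it -0.23. Without CPIP+ETA 2 the last was -0.45, and without CPIP+ETA 1 it was -0.0098. The 6 markers of large neurons and proprioceptors summed to 10680 and 9661 CPM in CPIP+ETA, 10050 and 9411 CPM in CPIP+Veh, and 10120 and 9495 CPM in Sham+Veh, with every pair of groups overlapping. Nefh made up most of each sum, whereas Pvalb was at 108.5 to 131.8 CPM and Runx3 at 3.04 to 3.78 CPM.

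Ngfr, the p75 receptor of all neurotrophins, is made by sensory neurons and by Schwann cells and satellite glia. It stood at 720.8 and 692 CPM in CPIP+ETA, 745 and 716 CPM in CPIP+Veh, and 742 and 754 CPM in Sham+Veh. Both CPIP+ETA libraries lay below both sham libraries, and CPIP+Veh overlapped each of the other groups. The lowest of its fold changes was -0.08 on the log2 scale (SE 0.048, edgeR adjusted p = 0.841), in CPIP+ETA against Sham+Veh. Satellite glia markers, 6 of 6 present and none at 0 throughout, summed to 4639 and 4406 CPM in CPIP+ETA, 4556 and 4426 CPM in CPIP+Veh, and 4658 and 5024 CPM in Sham+Veh. Apoe, a lipid carrier, made up most of each sum, at 4267 and 3949 CPM in CPIP+ETA and 4301 and 4647 CPM in Sham+Veh, while Fabp7, a fatty acid binding protein, went the other way, at 25.4 and 22.7 CPM in CPIP+ETA and 17.1 and 17.7 CPM in Sham+Veh. Kcnj10, Glul, Cadm2 and Slc1a3 overlapped between these groups. Both Schwann cell sums overlapped too. Non-myelinating markers summed to 2152 and 2349 CPM in CPIP+ETA and 2227 and 2134 CPM in Sham+Veh. Myelinating markers summed to 9265 and 13530 CPM in CPIP+ETA and 11660 and 14050 CPM in Sham+Veh. The part of the glial markers in the Ngfr value was not tested.

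Ret, the signalling kinase shared by the GDNF family, stood at 770.6 and 709.8 CPM in CPIP+ETA, 685 and 708 CPM in CPIP+Veh, and 672 and 708 CPM in Sham+Veh. Both CPIP+ETA libraries lay above the other 4, by little in the case of CPIP+ETA 2. The mean was 740.2 ± 43.0 CPM in CPIP+ETA against 697 ± 15.7 CPM in CPIP+Veh (SD, n = 2 each), a log2 fold change of 0.09 (SE 0.058, edgeR adjusted p = 0.938). Against Sham+Veh, at 689.7 ± 25.2 CPM, CPIP+ETA had 0.10 (SE 0.058, adjusted p = 0.84). Leaving out CPIP+ETA 1 gave 0.030 against CPIP+Veh and 0.049 against Sham+Veh, and leaving out CPIP+ETA 2 gave 0.15 and 0.16. CPIP+Veh against Sham+Veh gave 0.014 (SE 0.058, adjusted p = 0.992).

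Gfra1, the GDNF co-receptor, was the receptor with the highest fold change in the model. It stood at 269 and 296 CPM in CPIP+ETA, 289.7 and 345 CPM in CPIP+Veh, and 264 and 286 CPM in Sham+Veh. CPIP+Veh 2 was above every other library, and CPIP+Veh 1 was between the CPIP+ETA libraries and above both sham libraries. The mean was 318 ± 39.3 CPM in CPIP+Veh against 275 ± 15.2 CPM in Sham+Veh, a log2 fold change of 0.21 (SE 0.095, 95% interval -0.022 to 0.43, unadjusted p = 0.0693, edgeR adjusted p = 0.938). Leaving out CPIP+Veh 2 gave 0.07, and leaving out CPIP+Veh 1 gave 0.33. CPIP+ETA against CPIP+Veh gave -0.17 (SE 0.095, adjusted p = 0.938), and -0.036 without CPIP+Veh 2. CPIP+ETA against Sham+Veh gave 0.04 (SE 0.095, adjusted p = 0.962).

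Relative to Ret within each library, Gfra1 had 34.9 and 41.7 reads per 100 Ret reads in CPIP+ETA, 42.3 and 48.8 reads in CPIP+Veh, and 39.4 and 40.4 reads in Sham+Veh. The CPIP+Veh libraries had the highest ratios. CPIP+ETA overlapped Sham+Veh. CPIP+Veh 2 was also the library with the highest axon injury marker sum, 511.9 CPM, and the part of those markers in the Gfra1 value was not tested.

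Gfra2, the neurturin co-receptor of non-peptidergic nociceptors, was nearly level across the study. It stood at 109 and 108 CPM in CPIP+ETA, 104 and 105 CPM in CPIP+Veh, and 107 and 114 CPM in Sham+Veh. The CPIP+Veh libraries were the lowest and did not overlap either of the other groups. The differences were small: a log2 fold change of -0.08 (SE 0.054, edgeR adjusted p = 0.948) in CPIP+Veh against Sham+Veh and 0.05 (SE 0.054, adjusted p = 0.946) in CPIP+ETA against CPIP+Veh. With Sham+Veh 1 left out the first was -0.11, and with Sham+Veh 2 left out -0.030. Markers of non-peptidergic and C-fibre touch neurons, 6 of 6 present and none at 0 throughout, summed to 732.5 and 801.1 CPM in CPIP+ETA, 685.7 and 732.3 CPM in CPIP+Veh, and 692.3 and 753.2 CPM in Sham+Veh. P2rx3 made up most of each sum. Mrgprd and Lpar3 were lower in both CPIP+Veh libraries than in both CPIP+ETA libraries, and Slc17a8 was higher. P2rx3, Th and Runx1 overlapped between those groups. Against Sham+Veh only Slc17a8 did not overlap, and it was higher in CPIP+Veh. The part of these markers in the Gfra2 value was not tested.

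Gfra3, the artemin co-receptor found on peptidergic nociceptors, differed most between the 2 libraries of CPIP+Veh. It stood at 44.3 and 52.0 CPM in CPIP+ETA, 41.8 and 56.5 CPM in CPIP+Veh, and 53.7 and 49.9 CPM in Sham+Veh. The CPIP+Veh pair held both the lowest and the highest of the 6 libraries, 0.436 apart on the log2 scale. All groups overlapped, and the sign of the fold change depended on that pair: CPIP+Veh against Sham+Veh was -0.08 (SE 0.15, edgeR adjusted p = 0.98), 0.13 with CPIP+Veh 1 left out, and -0.31 with CPIP+Veh 2 left out. The other fold changes were -0.03 (SE 0.15, adjusted p = 0.987) in CPIP+ETA against CPIP+Veh and -0.11 (SE 0.15, adjusted p = 0.931) in CPIP+ETA against Sham+Veh. Markers of peptidergic nociceptors, 5 of 5 present and none at 0 throughout, summed to 1606 and 1739 CPM in CPIP+ETA, 1758 and 1822 CPM in CPIP+Veh, and 1863 and 1582 CPM in Sham+Veh. Both CPIP+ETA libraries lay below both CPIP+Veh libraries in this sum, the comparison in which Bdnf was also lower. The single markers did not move together. Calca made up most of each sum and was lower in both CPIP+ETA libraries, as was Adcyap1. Trpv1 went the other way, at 151.2 and 138.4 CPM in CPIP+ETA and 126.9 and 136 CPM in CPIP+Veh. Tac1 and Calcb overlapped. The part of these markers in the Gfra3 and Bdnf values was not tested.

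**Figure D3:**
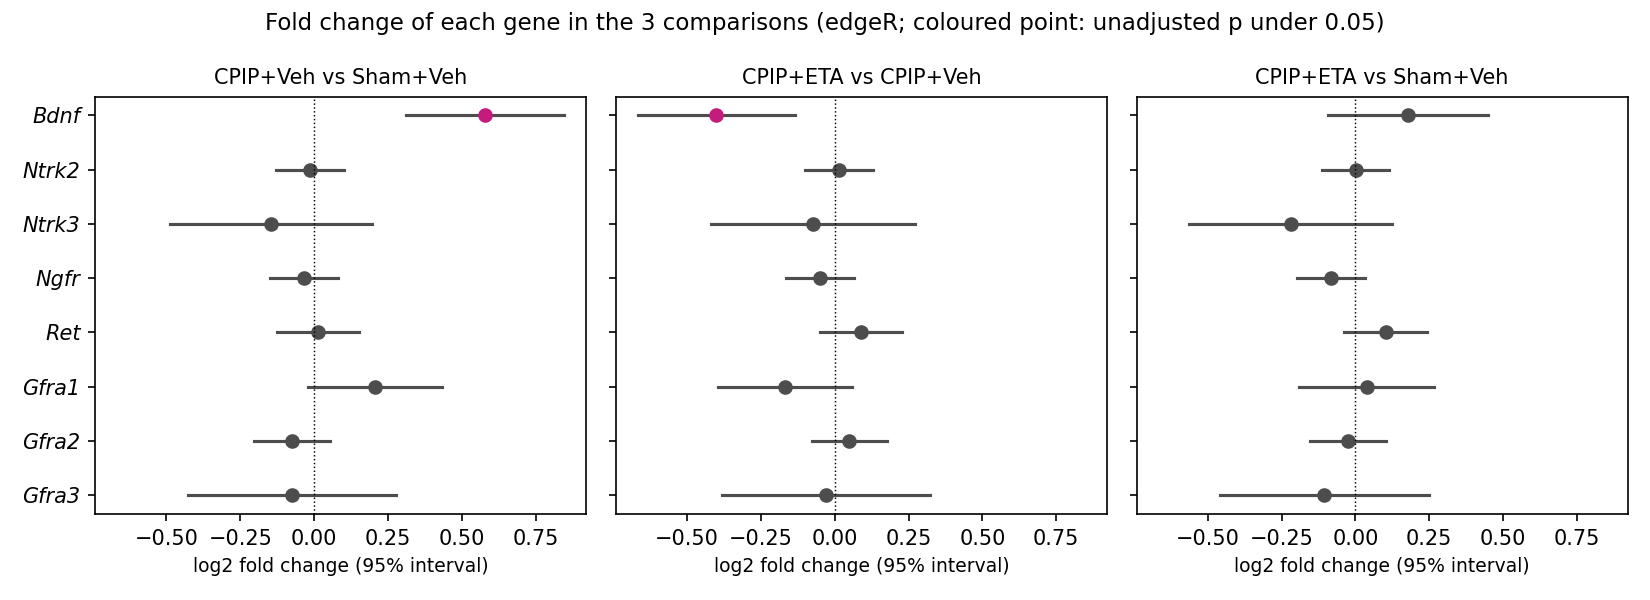
Log2 fold change (x axis) of each of the 8 genes (rows) in the 3 comparisons (panels), with 95% intervals as lines; coloured points have an unadjusted p under 0.05. Bdnf is the coloured point in the first 2 panels, at 0.58 and -0.40, and every receptor's interval includes 0.

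As a set, 0 of the 8 genes were called by edgeR in any comparison. At an unadjusted p under 0.05 there was 1, Bdnf, in CPIP+Veh against Sham+Veh (4.94% of all genes tested, 2.34% higher and 2.59% lower) and 1, again Bdnf, in CPIP+ETA against CPIP+Veh (5.15%, 2.42% higher and 2.73% lower), and 0 in CPIP+ETA against Sham+Veh (6.37%). DESeq2 and limma-voom also called 0. Groups did not overlap for 4 of the 8 in CPIP+Veh against Sham+Veh (2 higher, Bdnf and Gfra1, and 2 lower, Ntrk3 and Gfra2), where this held for 37.1% of all genes, 17.6% higher and 19.5% lower. The count was 3 of 8 in CPIP+ETA against CPIP+Veh (32.6% of all genes, 15.7% higher and 16.9% lower), with Ret and Gfra2 higher and Bdnf lower. It was 2 of 8 in CPIP+ETA against Sham+Veh (35.7%, 17.2% higher and 18.5% lower), with Ret higher and Ngfr lower. Fold changes were above 0 for 3, 3 and 4 of the 8 genes in the 3 comparisons, and for 49.0%, 49.6% and 49.3% of all genes tested. These shares of the 8 genes rest on very few genes, and the comparisons share libraries. The median log2 fold changes of the set were -0.024, -0.040 and -0.013, beside medians of -0.0031, -0.0016 and -0.0020 over all genes tested.

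The precision differed among the receptors. For Ntrk2, Ngfr, Ret and Gfra2 the 95% intervals of all 3 comparisons lay between -0.20 (Gfra2, CPIP+Veh against Sham+Veh) and 0.24 (Ret, CPIP+ETA against Sham+Veh) on the log2 scale. For Ntrk3, Gfra1 and Gfra3 they reached from -0.56 (Ntrk3, CPIP+ETA against Sham+Veh) to 0.43 (Gfra1, CPIP+Veh against Sham+Veh).

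**Figure D4:**
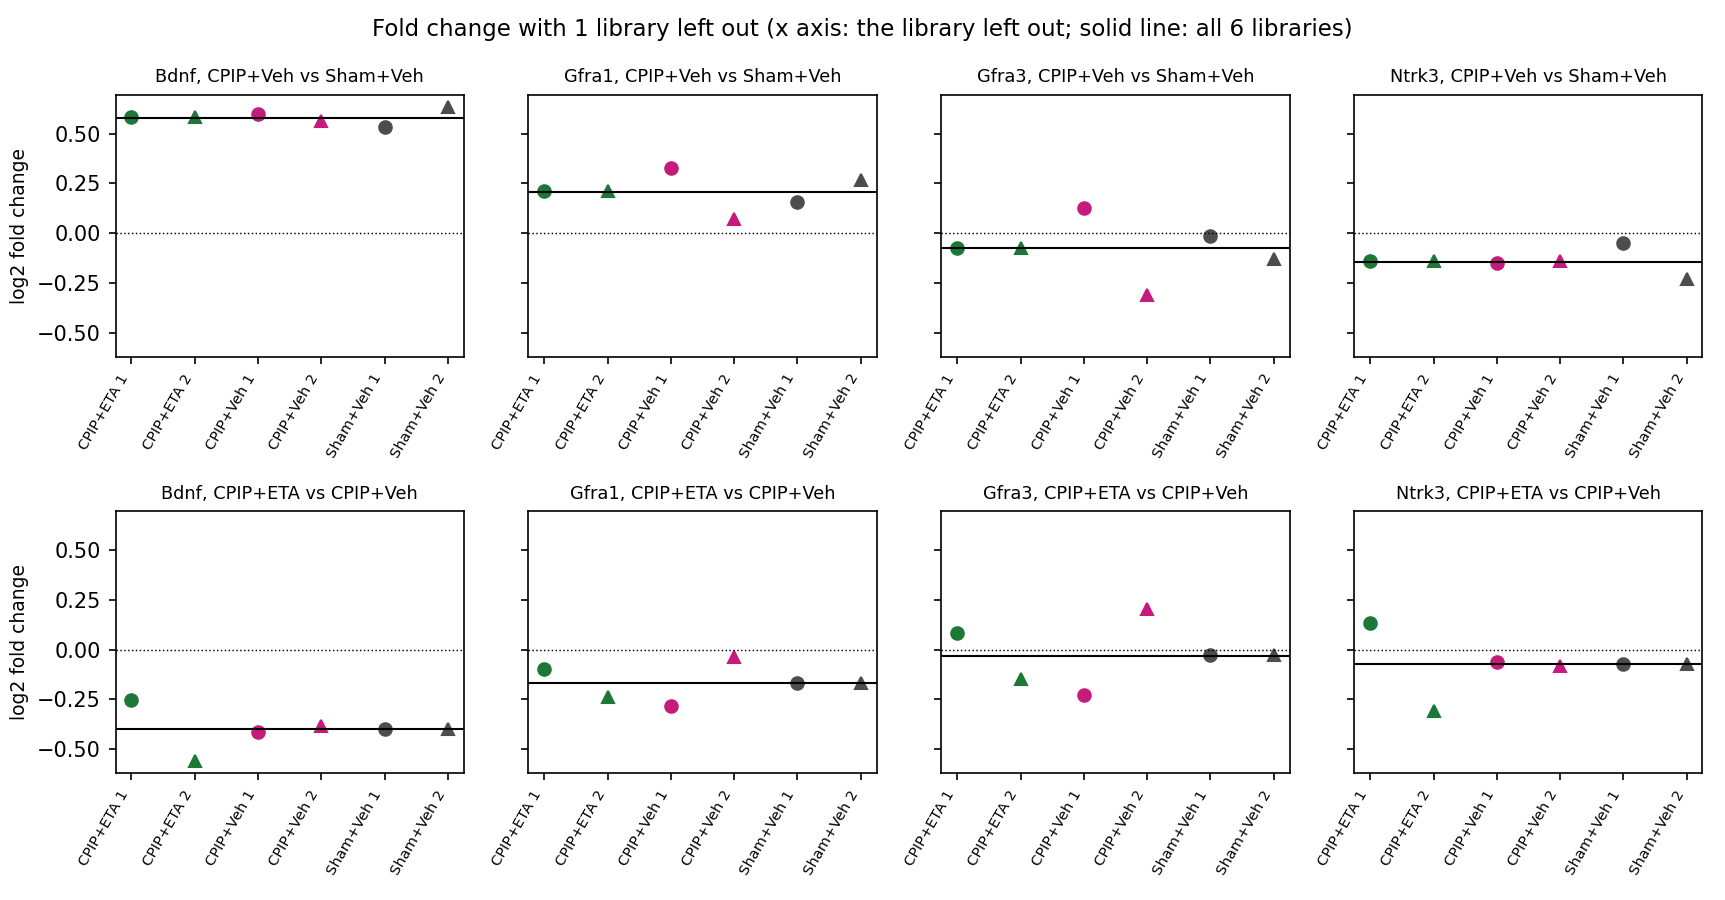
Log2 fold change (y axis) of Bdnf, Gfra1, Gfra3 and Ntrk3 with 1 library left out (x axis, named by the library left out; colours are groups), for CPIP+Veh against Sham+Veh (top) and CPIP+ETA against CPIP+Veh (bottom); solid lines are the values with all 6 libraries and dotted lines mark 0. Bdnf keeps its sign in all 12 points (0.53 to 0.63 and -0.56 to -0.25). Its CPIP+Veh libraries lay above all the others, so leaving 1 out could not change the sign. Gfra3, whose groups overlapped, crosses 0 in both rows.

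The other genes of these pathways were taken from 5 lists with 67 genes, of which 66 were in the table and 62 were tested. None of the 62 was called by edgeR in any comparison. At an unadjusted p under 0.05 there were 0 in CPIP+Veh against Sham+Veh, beside 4.94% of all genes tested. In CPIP+ETA against CPIP+Veh 2 were higher and 2 lower, beside 2.42% of all genes higher and 2.73% lower. In CPIP+ETA against Sham+Veh 1 was higher and 4 lower, beside 2.64% of all genes higher and 3.73% lower.

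The other ligands described here were scarcely expressed in the ganglion. Over the 6 libraries together, Artn (artemin) had 154 reads, Nrtn (neurturin) 106, Pspn (persephin) 47, Ntf3 (neurotrophin-3) 24, Gdnf 10 and Ntf4 (neurotrophin-4) 1. Ntf3, Gdnf and Ntf4 were too low to test. Pspn had 5 and 5 counts in CPIP+ETA, 7 and 8 counts in CPIP+Veh, and 12 and 10 counts in Sham+Veh, with no overlap between any of the groups. CPIP+ETA against Sham+Veh gave Pspn a log2 fold change of -1.17 (SE 0.48, edgeR adjusted p = 0.779). Pspn reached the minimum count of 10 needed for testing only in Sham+Veh, the group where it was highest. Its fold change and its lack of overlap are not independent of that filter, and no conclusion is drawn from them. Fibroblast markers, 5 of 5 present and none at 0 throughout, summed to 1673 and 2182 CPM in CPIP+ETA, 2133 and 2546 CPM in CPIP+Veh, and 2611 and 2804 CPM in Sham+Veh, and their part in the Pspn value was not tested.

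Among the other receptors, 13 of 14 were tested and 0 were called. In CPIP+Veh against Sham+Veh 2 of the 13 had a fold change above 0, and in CPIP+ETA against CPIP+Veh 10 of the 13. The shares over all genes tested were 49.0% and 49.6%. The medians were -0.12 and 0.12 on the log2 scale, and both comparisons use the CPIP+Veh libraries. By edgeR 0 of the 13 had an unadjusted p under 0.05 in either comparison. In CPIP+ETA against Sham+Veh 5 of the 13 had a fold change above 0, beside 49.3% of all genes tested. In that comparison 2, Sorcs1 and Gfra4, were lower at an unadjusted p under 0.05 by edgeR, beside 3.73% of all genes. Gfra4, the persephin co-receptor, stood at 1.91 and 1.96 CPM in CPIP+ETA, 2.23 and 2.32 CPM in CPIP+Veh, and 2.87 and 2.85 CPM in Sham+Veh. No 2 groups of Gfra4 overlapped, and CPIP+ETA against Sham+Veh gave a log2 fold change of -0.56 (SE 0.23, edgeR adjusted p = 0.769). Sort1, which encodes sortilin, a partner of p75 for the neurotrophin precursors, had 0.12 (SE 0.052, adjusted p = 0.938) in CPIP+ETA against CPIP+Veh, and its relative Sorcs2 had 0.12 (SE 0.051, adjusted p = 0.938).

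Of the intracellular partners, the lowest p-values were those of Irak1, a kinase downstream of p75, in CPIP+Veh against Sham+Veh (log2 fold change 0.11, SE 0.050, edgeR adjusted p = 0.938) and of Gab1, a docking protein of receptor tyrosine kinases, in CPIP+ETA against CPIP+Veh (-0.21, SE 0.081, adjusted p = 0.938). Of the precursor processing genes they were those of the convertase Pcsk5 in CPIP+Veh against Sham+Veh (-0.23, SE 0.13, adjusted p = 0.948) and of Plat, tissue plasminogen activator, in CPIP+ETA against CPIP+Veh (0.20, SE 0.077, adjusted p = 0.938). Of the feedback inhibitors they were those of the phosphatase Dusp4 in CPIP+Veh against Sham+Veh (0.64, SE 0.27, adjusted p = 0.938) and of Cblb, a ubiquitin ligase, in CPIP+ETA against CPIP+Veh (0.23, SE 0.068, adjusted p = 0.938).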

How the data were processed

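Expected counts (estimated reads per gene, not all whole: 32.7% of the values were whole) are given as the authors deposited them, 1 column per library, and columns were assigned by title. Per the labels' protocols, Trizol RNA of high integrity was sequenced on a BGISEQ-500. Rnor_6.0 is the build that the submitters' processing notes name. Aligner, counter, annotation and strand handling: not given in the sources used here. In the deposited table, 2907 genes with blank counts in every library were read as 0.

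After rounding, counts were tested with edgeR 4.0.16 (quasi-likelihood F-test, R 4.3.3) in 1 fit of all 6 libraries with group as the only term, filterByExpr (minimum count 10, total 15), TMM scaling and 3 residual degrees of freedom. Calls needed an adjusted p under 0.05 (Benjamini-Hochberg, over 15531 genes). SE is the log2 fold change divided by the root of F, and 95% intervals use 3 residual plus 3.64 prior degrees of freedom and are approximate. Levels of different genes are not compared, since no transcript lengths were used.

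The 8 genes, the pathway lists and the marker lists were chosen with earlier results of these data known. All 8 were named, every ligand and other receptor could be, and otherwise the 2 genes of a list with the lowest p, as were the 3 genes nearest in pattern. Some genes of these lists are not reported here. Alternative settings covered scaling (RLE, upper quartile, library totals), tool (DESeq2 1.42.0; limma 3.58.1 with voom), count filters, fits restricted to a pair of groups, a block for the title number, and leaving out each library. Figures were drawn with matplotlib 3.10.9.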

Additional observations from a re-analysis of the deposited data

How the results depend on the processing

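Of 360 alternative values for the 24 member fold changes, 341 kept their sign and their side of the threshold, 19 changed sign and 0 were called. The member counts called stayed at 0 throughout. DESeq2 called 49, 21 and 50 genes in CPIP+Veh against Sham+Veh, CPIP+ETA against CPIP+Veh and CPIP+ETA against Sham+Veh, where edgeR called 3, 0 and 3. In the last comparison limma-voom called 1 and a fit of only the 2 groups compared called 1; the cause was not tested. With 1 library left out the counts were 1 to 3 in the first comparison (1 without CPIP+Veh 2), 0 in the second and 1 to 2 in the last (1 without CPIP+Veh 1, CPIP+Veh 2 or CPIP+ETA 1), with the lone library of its group assumed to vary like the others.

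Members at an unadjusted p under 0.05 numbered 2, Bdnf and Gfra1, with DESeq2 in CPIP+Veh against Sham+Veh, beside 2.83% of all genes tested. Members at that level are not counted for fits with 1 library left out, which leave a group with 1 library. The title number as a replicate block also gave 2, Bdnf and Gfra1, in CPIP+Veh against Sham+Veh (5.51% of all genes). It gave the same 2 in CPIP+ETA against CPIP+Veh (5.78%), and left the genes called at 3, 0 and 3 in the 3 comparisons. Same-numbered libraries did not deviate together (correlations across genes of 0.0345, 0.0503 and, for CPIP+ETA and Sham+Veh, -0.106), and the labels do not say what the number marks. Crossing the numbers of CPIP+ETA, a choice made after seeing the data, gave 1 gene called and 0 members in CPIP+ETA against Sham+Veh.

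Sign changes were at values near 0 or from leaving out 1 library. Ntrk2 in CPIP+ETA against Sham+Veh was -0.0043 with library totals, -0.00016 with upper-quartile scaling and -0.00011 with a filter of 1 CPM in 2 libraries. With 1 library left out, CPIP+Veh against Sham+Veh ran from -0.038 to 0.017 for Ntrk2, -0.015 to 0.053 for Ret and -0.31 to 0.13 for Gfra3. CPIP+ETA against CPIP+Veh ran from -0.0039 to 0.038 for Ntrk2, -0.23 to 0.20 for Gfra3 and -0.31 to 0.13 for Ntrk3. CPIP+ETA against Sham+Veh ran from -0.022 to 0.034 for Ntrk2, -0.027 to 0.11 for Gfra1, -0.061 to 0.021 for Gfra2 and -0.22 to 0.012 for Gfra3.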
